A study of Rattus norvegicus with 21 samples.

Results

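The transcriptome described here is that of epileptic rat dentate gyrus samples in which no fast ripples were recorded. Its members are the 11 arrays labelled Non-FR for electrophysiology, of 21 arrays in the series. The other 10 arrays held samples with fast ripples, which are very fast bursts of field activity seen in epileptic hippocampus, and they were used here only when the signals were normalized. All samples came from hippocampal slices of Wistar rats in which epilepsy was induced by injecting pilocarpine, which activates muscarinic receptors and sets off prolonged seizures, and the slices were recorded in vitro before RNA was taken. The 11 arrays came from 6 rats, and the number of slices was 3 for B9, 2 each for P91, B3 and B10, and 1 each for B1 and B13. All 6 rats had received pilocarpine and no untreated rat was analysed here, so the levels describe pilocarpine-treated tissue without a healthy reference. The labels give no sex, age or chip, and each sample is a piece of tissue rather than a sorted population.

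The dentate gyrus is the entry stage of the hippocampal circuit. Its granule cells, packed in a dense layer, receive input from the entorhinal cortex and send mossy fibres to the mossy cells of the hilus and to the pyramidal cells of CA3, while GABAergic interneurons restrain them. After pilocarpine seizures this region is known for loss of hilar neurons, sprouting of mossy fibres and proliferation of astrocytes and microglia.

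RNA was hybridised to Illumina beadchips, where the brightness of a bead's probe reports 1 transcript. Levels are given as log2 of the background-corrected and quantile-normalized signal, on which 1 unit is a 2-fold difference, and as the mean of the 6 rats' means with the SD over those 6 means. A detection p below 0.01, as deposited for each probe and array, counts as detected. On this scale the values ran from a floor of 5.77 to 13.81. Probes differ in how well they bind, so the order of genes below is an order of probe brightness and not of transcript copies, and a dim probe does not show that its transcript is missing. In tissue, fewer cells of a type and less RNA per cell cannot be told apart.

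The mean raw signal per array ran from 84.2 to 310.9, and 5648 to 9477 of 21803 measured probes were detected. The dimmest array was slice 2 of B10, which also had the fewest detected probes. Normalized levels correlated between 0.78 and 0.98 for pairs of arrays, a figure that the shared probe brightness sets in large part. Deviations from the mean level correlated on average by 0.42 for 6 pairs of slices from the same rat and by -0.13 for 49 pairs from different rats. The mean level came from these same arrays, which by itself pushes correlations between rats toward negative values. The highest correlation of any pair, 0.78, joined B13 and slice 2 of B10, above the 0.75 reached by slices of the same rat. Both slices of B10 went apart, with a correlation of -0.31 between them. Slice 2 of B10 lay beside the array of B13 on the first principal component, at -54.7 and -50.0, while slice 1 of B10 lay at 15.1. Slice 3 of P91 stood apart on the second component, at 38.3, with slice 1 of P91 at 0.76.

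**Figure D1:**
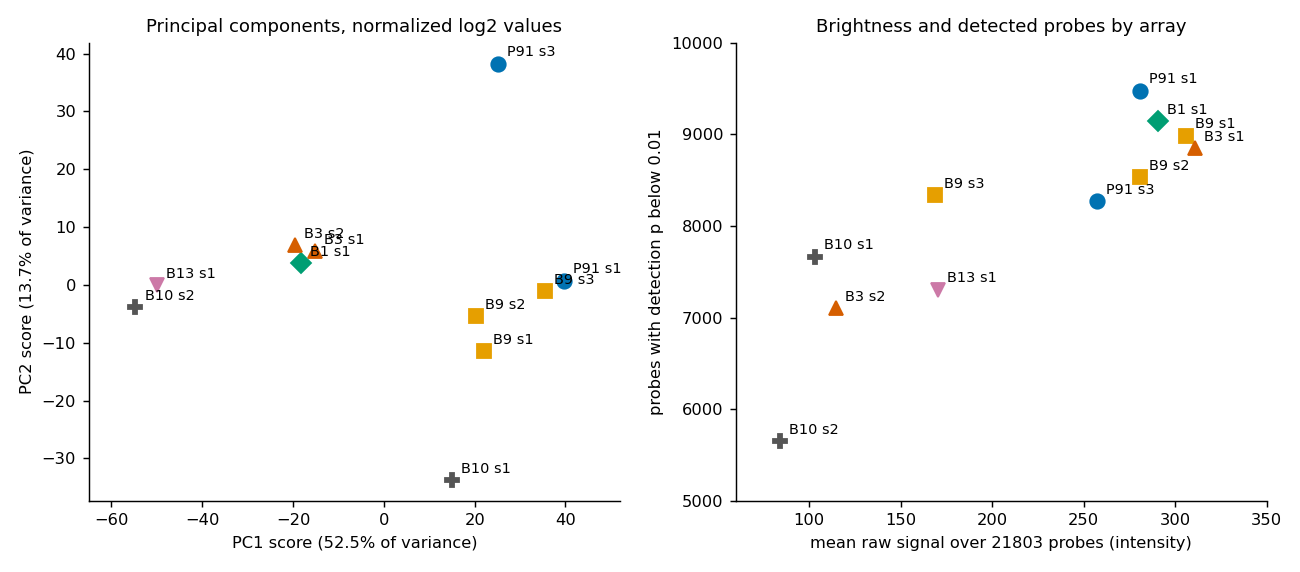
The left panel plots the first against the second principal component of the normalized log2 values (52.5% and 13.7% of the variance) for the 11 arrays, with symbol and colour by rat and s for slice. The right panel plots the number of probes detected at p below 0.01 against the mean raw signal of each array; B10 slice 2 has the lowest of both, 5648 probes and 84.2.

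Of 21803 measured probes, 4840 (22.2%) were detected on all 11 arrays, 6792 on 1 to 10 arrays and 10171 (46.6%) on none. Among 13317 named genes the shares were higher, with 3955 (29.7%) detected on every array and 4919 (36.9%) on none. Without B10 slice 2 the probes detected on every remaining array rose from 4840 to 5554, while those detected on none were 10203. Bright signal was concentrated. On each array the 10 brightest probes carried 2.79% to 2.81% of the normalized signal and the 1000 brightest between 55.02% and 55.2%, shares that quantile normalization makes nearly equal across arrays. Only 260 named genes had a level above 11.

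The brightest named probes belonged to iron storage, the vesicular proton pump, calcium signalling and the cell's energy supply. Fth1, the heavy chain of the iron-storage protein ferritin, had values from 13.34 to 13.81 with a median of 13.81 (level 13.70 ± 0.13, SD, n = 6 rats). It was the brightest probe or tied with the top value on most arrays, and its lowest value was in slice 1 of B9. Atp6v0c, the membrane ring subunit of the V-type proton pump that acidifies synaptic vesicles and lysosomes, ranged from 13.48 to 13.81 with a median of 13.65 (level 13.69 ± 0.09). Atp6v1b2, a catalytic-head subunit of that pump, ranged from 12.96 to 13.65 around 13.34. A further pump subunit, Atp6v1g2, had a level of 12.88 ± 0.27, so that 3 of the 30 brightest probes were of this complex.

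Calm2, which encodes the calcium sensor calmodulin, ranged from 12.35 to 13.48 with a median of 13.30, and its lowest value was in slice 3 of P91. Prnp, the prion protein of neuronal membranes, ranged from 12.52 to 13.48 around 13.10 and was also lowest in that slice. The sodium pump subunit Atp1b1 reached 13.04 ± 0.25, the calcium pump of the endoplasmic reticulum Atp2a2 12.64 ± 0.54 and the calcium sensor Ncald 12.62 ± 0.36. Atp2a2 had the largest SD over rats of the 30, from 11.60 to 13.25, with P91 lowest and B13 highest. Neuronal membrane and vesicle proteins in this group were Rtn1 (12.82 ± 0.28), the endocytic GTPase Dnm1 (12.76 ± 0.41) and the secreted Olfm1 (12.67 ± 0.33). The signalling adaptors Ywhae and Ywhaz stood at 12.95 ± 0.19 and 12.74 ± 0.51, the kinase inhibitor Pebp1 at 12.91 ± 0.45 and the immunophilin Fkbp1a at 12.74 ± 0.18.

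Housekeeping genes made up most of the rest. Atp5f1b, the catalytic subunit of mitochondrial ATP synthase, had a level of 12.93 ± 0.09. The ribosomal proteins Rplp0 and Rpl3 had 12.82 ± 0.24 and 12.66 ± 0.15, the elongation factor Eef1a1 12.79 ± 0.18 and the tubulins Tuba1b and Tuba1a 12.79 ± 0.42 and 12.52 ± 0.19. The autophagy protein Map1lc3b was at 12.73 ± 0.11 and the prolyl isomerase Ppia at 12.65 ± 0.34. Astrocytes were represented by Sparcl1, a secreted protein that acts on synapses (12.99 ± 0.16), and Ndrg2 (12.58 ± 0.21). The membrane proteins Itm2c (13.04 ± 0.20), Itm2b (12.55 ± 0.23) and Cd81 (12.79 ± 0.28) and the transcriptional corepressor Ctbp1 (12.51 ± 0.15) complete the 30. The same 30 probes led with the authors' processed values, without background correction and when all 11 arrays were weighted equally.

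**Figure D2:**
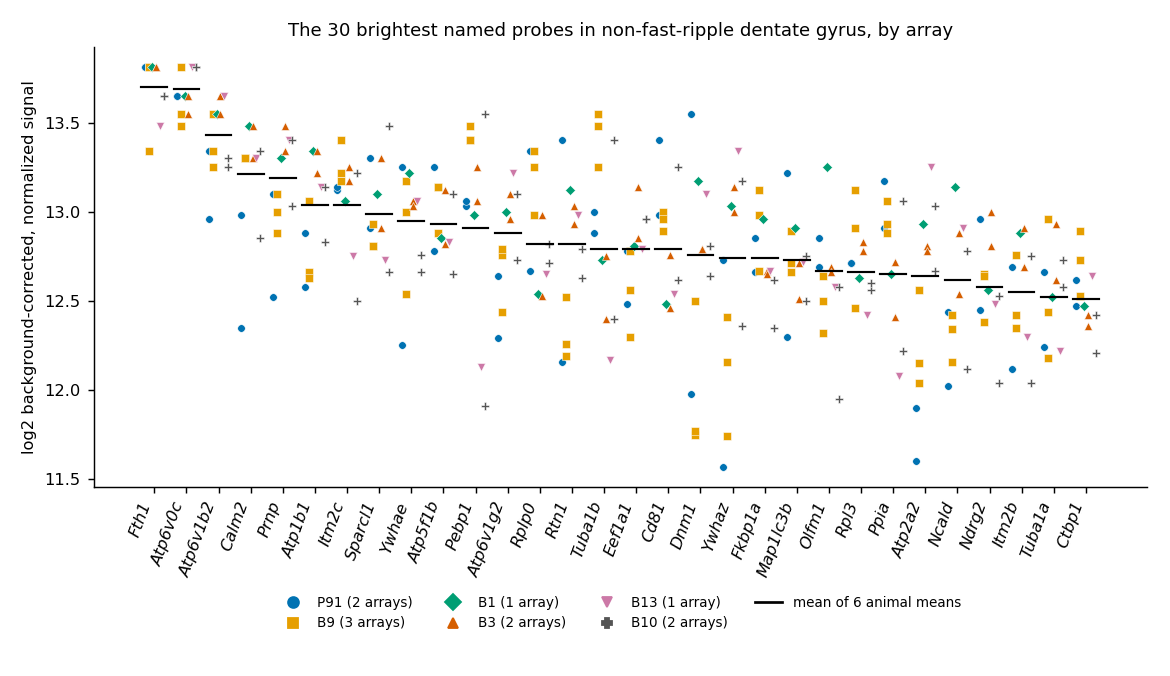
Log2 background-corrected, normalized signal (vertical axis) of the 30 brightest named probes, ordered by level, with 1 point for each of the 11 arrays, symbol and colour by rat, and a black line at the mean of the 6 rats' means. Fth1 and Atp6v0c sit at 13.70 and 13.69, and Atp2a2 spans 11.60 to 13.25 with the slices of P91 lowest.

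Promoters of these genes are shown because some of the brightest genes hold the letters of a short core motif on either strand. RefSeq promoters (build GRCr8) of the 250 bases before the annotated start were available for 24 of the 30. The letters TATAAA, on either strand, were found in 5 of 24 (20.8%), in 13.1% of 27457 RefSeq promoters of that length, and in 6.68% of 3340 promoters of genes detected on all 11 arrays. The letters GGGCGG, on either strand, were found in 19 of 24 (79.2%), in 32.4% of all promoters and in 60.9% of those of genes detected on all arrays. In Rplp0 and Ppia the TATAAA began 31 bases before the start. In Prnp, Rpl3 and Ndrg2 the letters were found only as the reverse complement, TTTATA. The letters CCAAT were found in 10 of 24 (41.7%) and in 34.3% of all promoters. Capitals mark these 3 motifs or their reverse complements, and the motifs do not overlap in these 2 promoters, which lie at chr12:46718391-46718640, minus strand, and chr14:85492966-85493215, plus strand.
Rplp0: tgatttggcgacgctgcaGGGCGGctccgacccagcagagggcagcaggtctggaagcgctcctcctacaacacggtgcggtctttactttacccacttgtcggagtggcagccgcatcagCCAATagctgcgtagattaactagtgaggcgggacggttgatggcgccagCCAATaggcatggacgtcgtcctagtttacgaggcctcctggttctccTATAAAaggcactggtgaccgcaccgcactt
Ppia: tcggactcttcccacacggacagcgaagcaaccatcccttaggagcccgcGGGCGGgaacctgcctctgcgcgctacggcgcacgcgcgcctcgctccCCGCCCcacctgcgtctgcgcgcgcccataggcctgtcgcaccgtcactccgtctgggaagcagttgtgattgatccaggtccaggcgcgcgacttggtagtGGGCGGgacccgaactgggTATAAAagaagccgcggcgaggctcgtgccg
A match of letters is a description of the window and was not tested for a link with brightness.

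The basic machinery of the cell was detected on nearly every array. Of 55 measured nuclear genes of oxidative phosphorylation, 50 (90.9%) were detected on all 11 arrays and 3 on none, against the backgrounds of 29.7% and 36.9% given above. Cox6a1, a subunit of cytochrome oxidase, ranged from 11.98 to 12.85 with a median of 12.25, and Atp5f1a, the other large subunit of the ATP synthase head, from 11.29 to 12.51 around 12.19. Ndufb4, Ndufs4 and Cox6c were the 3 detected on none. Of 29 proteasome and ubiquitin genes 25 were detected throughout and 0 on none, led by Skp1, an adaptor of ubiquitin ligases. Skp1 had a median of 12.26 but fell to 8.45 on slice 3 of P91 alone, with every other array at 11.79 or above. Of 22 translation factors 18 were detected throughout and 0 on none, led after Eef1a1 by the helicase Eif4a2 (12.41 ± 0.72) and the neuronal elongation factor Eef1a2 (12.02 ± 0.23).

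Ribosomal proteins showed how much the probe matters. Of 62 measured, 44 were detected on all arrays and 8 on none, among them Rps19, Rpl5 and Rpl11, which are core parts of the ribosome. Their dim probes do not show that the transcripts were missing. Glycolysis had 10 of 16 throughout and 2 on none, with the neuronal enolase Eno2 at 11.87 to 12.56 (median 12.31) and Tpi1 at 11.03 to 13.03 (median 12.38). Hk2 and the glucose carrier Slc2a1 were the 2 not detected. Chaperones had 19 of 27 throughout, led by Ppia, Calr and Dnaja1, and the cytoskeleton 23 of 33, with Actg1 and Tmsb10 detected on none. Proteins of iron, metal and antioxidant defence had 22 of 27 throughout and Tfrc, the transferrin receptor, as the only member detected on none. Prdx2 and Selenow followed Fth1 at 12.11 ± 0.32 and 12.06 ± 0.44. No probe was found for any gene of the mitochondrial genome.

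Among granule cell markers some had bright probes and others had probes near the floor. Calb1, the calcium-binding protein calbindin of mature granule cells, ranged from 7.58 to 12.50 with a median of 10.55. Its lowest value was in slice 1 of B10 and its second highest, 12.35, in slice 2 of the same rat, with B13 highest. C1ql2, a secreted protein of mossy fibre terminals, ranged from 8.03 to 10.87 around 10.19, with both slices of B10 lowest. Ncdn was at 10.64 to 12.69 (median 11.97). The transcription factor that defines granule cells, Prox1, was detected on 9 arrays at 5.91 to 6.25, close to the floor. Of 15 measured granule cell genes 5 were detected throughout (33.3%, near the 29.7% of all named genes), with a median level of 6.04, and 4 on none, with Tdo2, Lct and Trpc6 the first of these. Their mean level over the 10 members detected on at least 6 arrays was lowest in slice 1 of B10, at 7.14, and highest in B13, at 8.23, and slice 2 of B10 had 7.79.

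Of 14 measured genes of young granule cells and progenitors 3 were detected throughout and only Ccnb1, a mitotic cyclin, on none. Pcna, the sliding clamp of DNA replication and repair, ranged from 8.90 to 10.34 around 9.68, and the small homeodomain protein Hopx from 7.05 to 11.14 around 9.07, with slice 3 of P91 highest. Neurod1, a factor of young granule neurons, was detected on 9 arrays between 5.91 and 6.20 and the similarly dim Igfbpl1 on 10 between 5.93 and 6.63. The general genes in this list, Pcna, Hopx and Stmn1, are used by other cells too.

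Of 27 general neuronal genes 16 were detected throughout (59.3%) and 2, Syn1 and Pclo, on none. Snap25, part of the vesicle fusion complex, ranged from 10.41 to 12.38 with a median of 11.31. Nrgn, a calmodulin-binding protein of dendrites, ranged from 11.18 to 13.30 around 12.76, with slice 2 of B10 lowest. The defining markers Rbfox3 and Map2 had dim probes, at 5.97 ± 0.06 and 5.92 ± 0.05, and were detected on 9 and 4 arrays. The mean level of the 23 neuronal genes detected on at least 6 arrays lay between 8.92 and 9.54, a narrow band with slice 2 of B10 lowest and slice 1 of B10 highest.

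Among genes of the GABAergic interneuron list, Gad1, which makes GABA, had the brightest probe detected throughout. It ranged from 9.21 to 12.34 with a median of 11.40, lowest in slice 1 of P91 and highest in slice 2 of B10. The mean over the list was instead highest in slice 1 of B10, at 7.51, with slice 2 of B10 at 6.95. Which cells gave the Gad1 signal was not tested. Gad2, its sister enzyme, had a dim probe that was detected on 2 arrays. Lamp5 and Reln, which mark superficial interneurons, ranged from 7.85 to 11.40 and from 7.23 to 10.39. Of 28 interneuron genes 8 were detected throughout (28.6%, near the 29.7% of all named genes) and 4 on none (14.3% against 36.9%). The first 3 of these 4 were Nos1, Crh and Kit. Pvalb, of fast-spiking basket cells, was detected on 9 arrays between 5.84 and 6.84.

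The lists for neighbouring fields were short, with 12 to 15 measured genes each. Whether these fields differed in the share detected was not tested, and so few probes cannot settle it. For comparison, 29.7% of all named genes were detected throughout and 36.9% on none. Mossy cell genes numbered 12, with 5 detected throughout and 3 on none, but the bright members Ap2s1 (11.45 ± 0.29) and Sv2b are general vesicle genes. The listed Drd2 and Calb2 were at 6.10 ± 0.20 and 6.01 ± 0.09, and Calb2 is also in the list of young granule cells and progenitors. CA3 and CA2 genes had 6 of 15 throughout and 2 on none. Pcp4 ranged from 8.73 to 11.18 (median 10.19), Necab2 from 8.64 to 10.13 (9.37) and Bok, a BCL2 family member enriched in CA3, from 7.18 to 9.63 (8.06). The CA3 and CA2 mean was highest in slice 1 of B10, 8.43, and lowest in slice 1 of P91, 7.06. CA1 and subicular genes had 1 of 12 throughout and 5 on none, including Fibcd1, Mpped1 and Pou3f1, and the 1 member was Fn1, which vessels also make. Slice 1 of B10 was lowest of the arrays for the granule cell list, and also for the CA1 and subicular list and the pericyte list among others. It was highest for the CA3 and CA2, mossy cell, interneuron, general neuron and oligodendrocyte lists and for several lists of functions, glycolysis and cytoskeleton among them.

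Astrocytes had the most complete signature of any cell type listed. Of 33 measured genes 25 (75.8%) were detected throughout and 0 on none. Gfap, the astrocyte filament protein, ranged from 10.39 to 13.65 with a median of 12.35. All 5 slices of P91 and B9 lay between 13.48 and 13.65, above every other array, and the lowest values were slice 2 of B10 and B13 at 10.39 and 10.60. The gap junction protein Gja1 ranged from 11.54 to 12.67 around 12.27, and the mean over 29 members of the list from 9.64 to 10.50. Slc1a3, a glutamate transporter, ranged from 9.72 to 12.62, and the water channel Aqp4 was dim, at 5.91 to 7.79. For Gfap the test between rats gave an adjusted p of 0.109, which misses the threshold of 0.05.

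Genes of reactive glia were detected in part. Of 28 measured, 13 were detected throughout and 3 on none, namely Serpina3n, B3gnt5 and Ugt1a1. Timp1, an inhibitor of matrix proteases, ranged from 8.97 to 11.50 around 9.73, and the small heat shock protein Hspb1 from 8.30 to 10.98 around 9.01, with both highest in P91. Vim, an intermediate filament raised in gliosis, ranged from 7.29 to 10.52. Lcn2, an iron-trapping acute-phase protein, was between 5.92 and 7.09 on 10 arrays and at 9.67 in slice 3 of P91.

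Oligodendrocyte genes were detected in a graded way. Of 28 measured, 15 were detected throughout (53.6%) and only the transcription factor Olig2 on none. Tf, the iron carrier transferrin, ranged from 9.24 to 13.01 with a median of 11.68, Plekhb1 from 8.85 to 10.60 and Cnp, a myelin enzyme, from 8.02 to 11.42. All 3 were highest on average in P91 and lowest in B13. Mbp, the main myelin protein, had a probe near the floor, 5.90 to 6.33. The mean over 23 members ran from 6.94 in B13 to 8.39 in slice 1 of B10, and slice 2 of B10 was lower by 1.03. Precursor genes had 3 of 14 throughout, Olig1, Sox10 and Vcan, of which Olig1 was bright (9.74 ± 0.86), and 3 on none.

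Of 33 genes of microglia and macrophages 14 were detected throughout and 7 on none, the first 3 being Cd53, Ptprc and Mrc1. Ctss, a lysosomal protease, ranged from 10.36 to 12.14 around 11.40, Fcer1g from 8.04 to 9.53 and the pattern receptor Tlr2 from 7.89 to 10.40. Aif1, the calcium-binding protein IBA1, was at 7.27 to 9.20. Cx3cr1 and P2ry12 were detected on 7 and 6 arrays at levels of 5.99 ± 0.11 and 5.95 ± 0.07. The mean over 20 members was highest in slice 1 of P91, 8.48, and lowest in B13, 7.01.

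Of 30 endothelial genes 11 were detected throughout and 6 on none, with the thyroid hormone carrier Slco1c1 at 9.25 to 11.12, the lipid transfer protein Pltp at 7.26 to 11.21 and the tight junction protein Cldn5 at 7.17 to 10.72. Cdh5 and Tek, which also mark endothelium, were on none. Pericyte genes had only Vtn, of 14, throughout. Meningeal genes had 7 of 23 (30.4%, near the 29.7% of all named genes), led by Ptgds, a prostaglandin synthase (9.92 ± 1.17). Col1a1 and Col3a1 were on none. Choroid plexus and ependyma had 2 of 20 throughout, Enkur and Rarres2, with a highest value of 7.24, and 12 on none, with the plexus markers Ttr, Kl and Folr1 among them, so defining plexus markers were not detected.

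Lists of blood cells had few members detected throughout, at most 7.69% against 29.7% of all named genes. On none were 62.5% of lymphocyte, 77.3% of neutrophil and mast cell and 46.2% of red cell genes, against 36.9% of all named genes. None of 24 lymphocyte genes was detected throughout and 15 were on none, including Cd3d, Cd3g and Cd4. Of 22 genes of neutrophils and mast cells 17 were on none, starting with S100a8, S100a9 and Mpo, and the sole member detected throughout was the matrix protease Mmp9 (6.17 to 8.75), which neurons and glia also make. Red cell genes had 6 of 13 on none, and the only member throughout was Bpgm, an enzyme of red cells and placenta, whose probe was bright at 9.95 to 10.93. Hbb, the beta chain of haemoglobin, was detected on 4 arrays with a level of 6.03 ± 0.32.

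Genes of other organs and other brain regions and a few sex-linked genes were set beside these lists. Of 230 such genes that stand in no cell type, function or reference list, 10 (4.35%) were detected throughout. Another 74 were detected on some arrays and 146 (63.5%) on none, against 36.9% on none for all named genes. The set is therefore not a control made of other organs alone. Hox genes, which pattern the hindbrain, spinal cord and trunk, had 17 of 20 on none and 0 throughout. Sensory receptors of smell and taste had 16 of 21 on none, pancreas and gut 20 of 30, kidney and adrenal 12 of 17, skin, lens and retina 14 of 22, liver 18 of 29, testis and ovary 17 of 30, pituitary 7 of 12 and heart and skeletal muscle 13 of 28. The exceptions included Itih3, a plasma protein stabiliser that astrocytes also make (10.49 to 12.38), and Acta1, skeletal muscle actin (7.80 to 9.73). For other brain regions, thalamus, hypothalamus and habenula had 1 of 23 throughout, the peptide Gal, and 8 on none, with Oxt, Hcrt and Tcf7l2 first. Striatum, brainstem and cerebellum had 4 of 28 throughout and 12 on none, among them the monoamine transporters Slc6a3, Slc6a2 and Slc6a4. The 4 included Calb1, which is also in the granule cell list, Rgs9, whose probe was bright (9.83 ± 0.94), and Penk. A list of 3 measured sex-linked genes had 2 detected throughout, Eif2s3 and Usp9x, at 6.32 ± 0.19 and 6.20 ± 0.18.

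**Figure D3:**
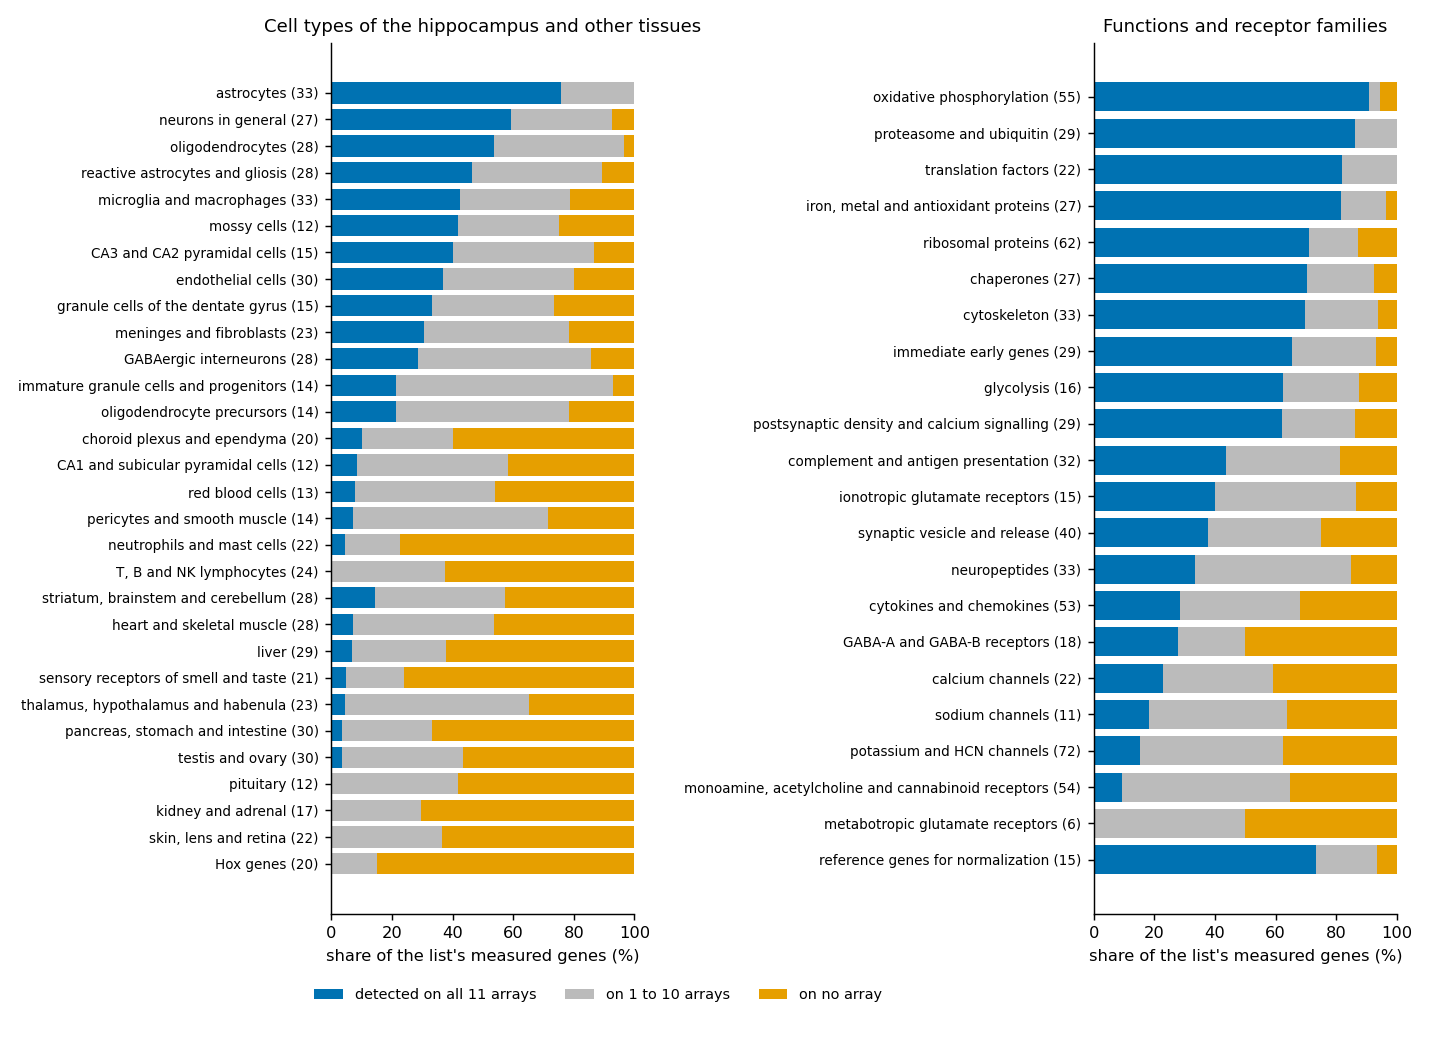
Share of each list's measured genes (horizontal axis, %) detected at p below 0.01 on all 11 arrays (blue), on 1 to 10 (grey) and on none (orange), with the number of measured genes in parentheses; cell types and then other tissues are on the left, functions on the right, each sorted by the blue share. Astrocytes reach 75.8% and oxidative phosphorylation 90.9%, while 17 of 20 Hox genes are on no array.

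Synaptic lists each held members detected throughout and members on none. Postsynaptic and calcium-signalling genes had 18 of 29 throughout and 4 on none, with Calm2, Ncald and Nrgn brightest and Shank1, Shank2 and Homer3 among the 4. Vesicle and release genes had 15 of 40 throughout, led by Atp6v0c, Atp6v1b2 and Dnm1, and 10 on none, with Vamp1, Syt2 and Syt5 first. Of 15 ionotropic glutamate receptor genes 6 were throughout and 2, Grin2d and Grik3, on none. Grin1, the obligatory NMDA receptor subunit, ranged from 9.93 to 11.38 around 10.70, Gria2, which makes AMPA receptors impermeable to calcium, from 6.90 to 10.23 around 9.36, and Grin2c from 6.52 to 9.32. Both Gria2 and Eif4a2 were lowest in P91. None of 6 metabotropic glutamate receptor genes was throughout and Grm4, Grm6 and Grm8 were on none.

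Of 18 GABA receptor genes 5 were throughout and 9 on none. Gabbr2, a GABA-B receptor subunit, ranged from 10.91 to 11.97, Gabrb1 from 7.95 to 11.14 and the scaffold gephyrin, Gphn, from 7.99 to 9.19. Gabra6, a subunit of cerebellar granule cells, was among the 9. Receptors for monoamines, acetylcholine, cannabinoids and related transmitters had 5 of 54 throughout (9.26%) and 19 on none (35.2%). Adora1, the inhibitory adenosine receptor, led at 6.52 to 8.44, followed by the muscarinic receptor Chrm3 (6.04 to 7.91) and Adra2c. Htr1a, Htr1b and Htr2b were on none.

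Potassium and HCN channel genes had 11 of 72 throughout (15.3%) and 27 on none (37.5%). Kcnk1, a leak channel, ranged from 9.17 to 11.54 around 10.97, the channel-interacting protein Kcnip2 from 8.99 to 11.19 and Kcnh1 from 8.25 to 10.33, while Kcna2, Kcna3 and Kcna5 were on none. Sodium channels had 2 of 11 throughout, the auxiliary subunit Scn3b (9.93 to 12.22) and the pore subunit Scn2a (7.70 to 8.97), with Scn7a, Scn9a and Scn10a, known from the periphery and glia, among 4 on none. Calcium channels had 5 of 22 throughout, led by Cacnb3 (9.47 to 11.27) and Cacna2d1, and 9 on none, beginning with Cacna1a, Cacna1b and Cacna1e. These pore subunits are used at hippocampal synapses, so their dim probes again say nothing certain of the transcripts.

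Genes induced by activity were largely detected. Of 29 immediate early genes 19 were throughout (65.5%) and 2, Npas4 and Maff, on none. Dusp1, a phosphatase of MAP kinases, ranged from 10.57 to 11.75 around 11.08, Rgs2, a brake on G-protein signalling, from 9.42 to 12.30 and the transcription factor Egr1 from 9.98 to 11.58 around 10.75. The slices had been kept in vitro for recording before RNA was taken, and the part of that step in these levels was not tested. Neuropeptide and secretory genes had 11 of 33 throughout (33.3%, near the 29.7% of all named genes) and 5 on none. The granin Chgb was at 11.37 to 12.60 and Pcsk1n at 9.46 to 12.89. The growth factor Bdnf was at 7.34 to 11.02, with the highest mean in B13 and the lowest in P91. Crh, Nts and Oxt were on none.

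Inflammatory lists held a few bright members over many dim ones, with median levels of 5.96 for cytokines and chemokines and 6.50 for complement and antigen presentation. Cytokines and chemokines had 15 of 53 throughout (28.3%) and 17 on none (32.1%), shares near the 29.7% and 36.9% of all named genes. The neuronal chemokine Cx3cl1 ranged from 11.20 to 12.73 around 12.21, Cxcl1 from 8.11 to 11.52 and Cxcl12 from 7.94 to 10.54, and the interleukins Il2 and Il3 and the antagonist Il1rn were on none. Complement and antigen presentation had 14 of 32 throughout and 6 on none, with B2m, the light chain of class I molecules, at 9.13 to 11.18, Cd59b at 7.51 to 9.47 and C4b at 7.17 to 11.17, where P91 was highest. C6, C8a and C9, of the terminal lytic complex, were on none. The mean over 23 members of that list ran from 6.87 in B13 to 8.51 in slice 1 of P91.

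Genes often used as references for normalization ranged over nearly the whole scale. Of 15 measured, 11 were detected throughout. The brightest were Rplp0, Eef1a1, Ywhaz and Ppia, followed by Pgk1 (10.76 to 12.08, level 11.49 ± 0.18), B2m (10.29 ± 0.37), Actb (9.29 to 11.27, level 10.28 ± 0.57), Hprt1 (8.28 to 10.95, level 10.23 ± 0.71) and Sdha (9.59 ± 0.25). Tbp and Tubb5 were dim but detected throughout, at 6.54 ± 0.16 and 6.50 ± 0.24. Gusb was detected on 9 arrays, Rpl13a and Rplp2 on 1 each and Tfrc on none. Between rats, Hprt1, Actb and Ywhaz had the widest SD of the 15 and P91 was lowest for Hprt1, at 8.28 on its lower slice.

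The SD over the rats' means was close in size to the SD between slices, but the means also carry part of the slice spread. Over the 8131 features tested (named genes, or unnamed probes, detected on at least 6 arrays) the median SD over the 6 rats was 0.28 and the median SD between slices of a rat 0.29, both on the log2 scale. An SD under 0.25 was found for 3731 (45.9%) and above 1 for 236 (2.90%). For named genes detected on all arrays the spread was smallest among the 989 dimmest (median SD 0.25, levels 5.93 to 7.02), where values near the floor are compressed. It was 0.49, 0.48 and 0.40 in the 3 brighter groups of like size. The median intraclass correlation, the share of variance that lay between rats, was 0.27, and 2434 features (29.9%) exceeded 0.5. For the median feature, less of the variance thus lay between rats than between slices.

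**Figure D4:**
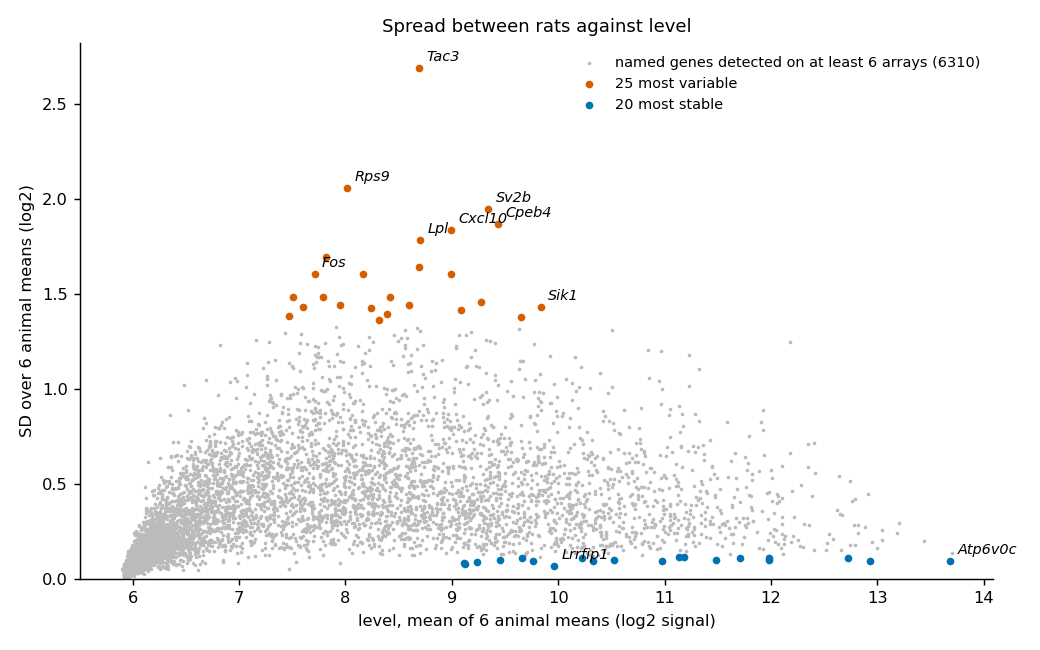
SD over the 6 rats' means (vertical axis, log2 units) against level (horizontal axis, log2 signal) for 6310 named genes detected on at least 6 arrays, with the 25 most variable in orange and the 20 most stable in blue. Tac3 stands highest at an SD of 2.69, and the stable genes, chosen among bright ones, lie at 0.115 or below.

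The most variable gene was Tac3, which encodes neurokinin B, a peptide of some interneurons. Its values were 12.22 and 11.80 in P91, 11.28, 11.01 and 10.90 in B9, 10.37 and 10.04 in B3, 6.57 in B1, 6.20 in B13, and 6.33 and 5.94 in B10. The 7 slices of 3 rats were thus at 10.04 or above and the 4 slices of the other 3 at 6.57 or below, with nothing between. Rps9, a ribosomal protein measured by 2 probes, was split by rat as well but in another way. Its brighter probe had 9.12 to 10.79 in the 7 slices of B9, B3 and B10. In the 4 slices of P91, B1 and B13 that probe had 6.04 to 6.27. The other probe is not shown, so the split is described for 1 probe and not for the gene. The gap for Tac3 was 3.48 and for Rps9 2.85 log2 units.

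The other 23 variable genes did not split by rat with so wide a gap, though some had wide gaps between arrays. Among synaptic and signalling genes, the vesicle protein Sv2b ranged from 6.13 to 11.65 (median 10.71), with slice 3 of P91 and B13 at 6.33 or below and the other 9 arrays at 9.28 or above, so that the slices of P91 lay on both sides. Camk2b, a calcium-calmodulin kinase subunit, ranged from 6.45 to 10.95, Cacna2d1, an accessory subunit of calcium channels, from 6.22 to 11.07, and Plcb1, a phospholipase downstream of muscarinic receptors, from 6.01 to 9.74. The kinases Mark2 and Sik1 spanned 5.97 to 10.86 and 7.20 to 11.87, the lipid kinase Dgkz 6.31 to 9.85. Fos, the classic immediate early gene, ranged from 5.94 to 11.54 and was highest in both slices of P91, at 11.54 and 9.54. The neurotrophin Ntf3 ranged from 5.88 to 10.39, with B1, B13 and slice 2 of B10 at 8.59 or above and the other 8 arrays at 6.61 or below.

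Several variable genes act outside neurons. Cxcl10, a chemokine induced by interferon, ranged from 6.20 to 11.90, with the 3 slices of B9 lowest and slice 2 of B10 highest. Serping1, an inhibitor of complement, ranged from 6.37 to 11.23 and was highest in P91. Lpl, a lipase of microglia and CA3 neurons, ranged from 5.90 to 11.45, with both slices of P91 at 6.02 or below and both of B10 highest. The matrix and growth factor genes Col6a1 (5.91 to 9.97), Gpc3 (level 7.94 ± 1.44), Frzb (5.94 to 9.97) and Tgfb2 (6.23 to 9.82) were all highest in B13 on average. Some of these genes separated the same arrays, a grouping chosen after their values were seen. Tgfb2 was at 9.36 to 9.82 in B1, both slices of B3, B13 and slice 2 of B10 and at 6.23 to 6.98 in P91, B9 and slice 1 of B10. Frzb was at 8.05 to 9.97 in those 5 arrays and at 5.94 to 6.11 in the other 6, and Wee1, a kinase of the cell cycle, at 8.48 to 10.39 and at 6.02 to 6.53. These were the arrays with negative and with positive values on the first principal component, and the slices of B10 fell on opposite sides. That component was computed from values that include these genes, so the match adds no separate evidence. The remaining members were Cpeb4, which controls translation (6.46 to 11.63), Naa30, Ube2g1, Serinc2, Klf13 and the ATP synthase subunit Atp5f1d (6.84 to 11.49). B13 was the highest rat for 10 of the 25 and the lowest for 7, and it is represented by 1 array. B3 was highest for 1 and lowest for 0.

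**Figure D5:**
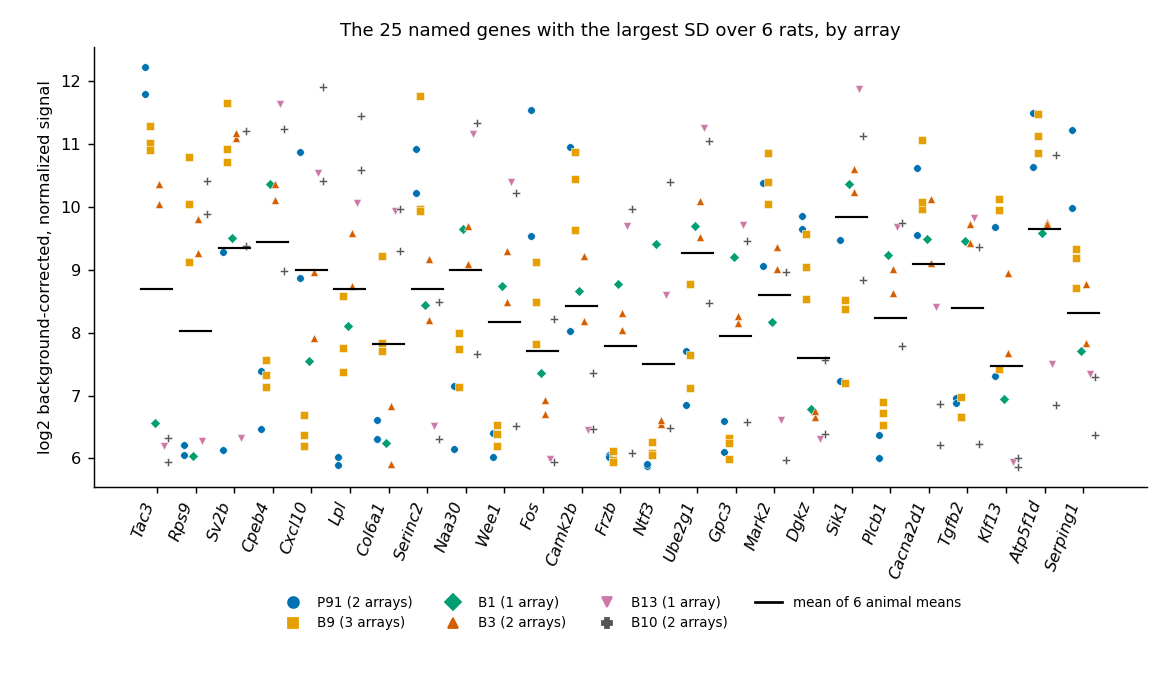
Log2 background-corrected, normalized signal (vertical axis) of the 25 named genes with the largest SD over rats, in that order, with 1 point for each of the 11 arrays, symbol and colour by rat, and a black line at the mean of the 6 rats' means. Tac3 and Rps9 fall into 2 separate levels with no point between 6.57 and 10.04 and between 6.27 and 9.12 and with each rat on 1 side. Sv2b and Tgfb2 also have gaps, but the slices of P91 and of B10, respectively, lie on both sides of them.

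Which genes differed between rats by more than between slices of a rat was tested with limma's moderated F over all 8131 features, two-sided with Benjamini-Hochberg adjustment. It called 5 features (0.0615%) at an adjusted p below 0.05, and 1330 had an unadjusted p below 0.05, where 406.6 would be expected if no feature differed. Tac3 had the smallest adjusted p, 0.00333, and Gskip, which binds the kinases PKA and GSK3, the next, 0.0150. Gskip ranged from 5.99 to 8.42, with both slices of B10 highest and P91 and B9 at 6.37 or below. Cotl1, an actin-binding protein, ran the other way, from 9.24 and 9.46 in B10 to 11.74 and 11.57 in P91 (adjusted p = 0.0387). Map4k3, a kinase of nutrient and stress signalling, ranged from 7.89 in P91 to 10.05 in B10 (adjusted p = 0.0387). Aplp1, a relative of the amyloid precursor protein, was at 8.90 and 9.06 in P91 and at 6.06 to 6.85 in all other slices (adjusted p = 0.0449). Of the list genes, Tac3 was the only one called, and it is in the interneuron, neuropeptide and hypothalamus lists. Rps9 had an adjusted p of 0.0796.

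The number called rests on the slices of B10. Without slice 1 of B10 the same test called 1079 features and without slice 2 it called 831, and without both 745. Without B1 it called 14, without any 1 slice of P91, B9 or B3 it called 1 or 2, and without rat B9 it called 0, with 526 at an unadjusted p below 0.05. Tac3 passed under 26 of the 27 alternatives in which it was tested, while the other 4 passed under 11 or 12 of 28. The rat is the independent unit, B1 and B13 have 1 slice each, and the spread between slices therefore comes from 4 rats.

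The most stable genes, taken among those detected throughout and brighter than the median of such genes (8.12), had SDs over rats of at most 0.115. Lrrfip1, a regulator of transcription, ranged from 9.80 to 10.19 (level 9.96 ± 0.06). Mitochondrial members were Cox8a (10.97 ± 0.09), Atp5f1b (12.93 ± 0.09), and Cisd1, an iron-sulphur protein of the outer membrane (11.19 ± 0.11). Cdo1, a cytosolic enzyme of cysteine breakdown, had 10.33 ± 0.09. The proton pump ring Atp6v0c and the autophagy protein Map1lc3b were both among the 30 brightest and the 20 most stable, as was Atp5f1b. Membrane traffic and neuronal proteins were Rabac1 (11.98 ± 0.10), Vta1 (10.22 ± 0.11), Git2, Tspan31, Atraid and Crmp1 (11.98 ± 0.11), and the sodium pump subunit Atp1b3 had 9.12 ± 0.08. The others were the histone variant Macroh2a1 (11.48 ± 0.10), the RNA ligase Rtcb, Lrrc59, the initiation factor Eif3c, the kinase Nme1 (11.71 ± 0.11) and Hsbp1. A small SD over rats can hide a wider spread between slices. For all of the 20 except Cisd1 the SD between slices exceeded the SD over rats, and it reached 0.50 for Cdo1 and Git2. Over the arrays Rtcb ranged from 8.53 to 9.53 and Eif3c from 9.01 to 10.06.

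The membership of the stable list was itself unstable. With SDs over the 11 arrays in place of the rats' means, 5 of the 20 remained, and leaving out 1 array kept between 8 and 17. The TATAAA letters were in 0 of the 18 promoters available for the stable genes, in 3 of the 19 for the variable genes (15.8%), in 13.1% of all and in 6.68% of those of genes detected on all arrays. The promoters of Cox8a and Rps9 are shown as those of a stable gene and of a gene whose brighter probe was split. Capitals mark the motifs named above and the letters TGACGTCA, or their reverse complements, none overlapping. The letters TGACGTCA were found in 1 of the 18, in 1.70% of all promoters and in 3.68% of those of genes detected on all arrays. The windows lie at chr1:213833624-213833873, minus strand, and chr1:74430438-74430687, minus strand (GRCr8).
Cox8a: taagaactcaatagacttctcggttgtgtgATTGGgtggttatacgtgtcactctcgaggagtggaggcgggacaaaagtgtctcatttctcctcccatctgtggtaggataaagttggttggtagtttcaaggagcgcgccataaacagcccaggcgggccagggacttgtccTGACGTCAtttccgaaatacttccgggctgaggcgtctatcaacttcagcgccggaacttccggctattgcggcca
Rps9: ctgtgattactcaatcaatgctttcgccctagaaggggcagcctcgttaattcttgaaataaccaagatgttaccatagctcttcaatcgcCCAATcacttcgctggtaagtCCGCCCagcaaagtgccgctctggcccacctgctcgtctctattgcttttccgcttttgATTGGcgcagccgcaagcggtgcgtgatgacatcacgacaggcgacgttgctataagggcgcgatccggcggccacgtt

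Slices of a rat could differ as much as rats did. The SD between slices was taken here as the square root of the mean variance over all features tested, unlike the median given above. It was 0.66 for B10, 0.47 for P91, 0.30 for B9 and 0.22 for B3. In B10 the mean of the glycolysis list was 10.47 in slice 1 and 9.22 in slice 2, that of oligodendrocytes 8.39 and 7.36, that of the cytoskeleton 9.72 and 9.02 and that of granule cells 7.14 and 7.79. In P91 the oligodendrocyte list was at 8.27 in slice 1 and 7.42 in slice 3, ribosomal proteins at 10.00 and 9.35, and cytokines at 7.33 and 7.98. The slices of B3 differed in brightness, with mean raw signals of 310.9 and 114.8, yet their normalized levels were the closest of any rat with several slices. The dimmer slice of B10 was the one without the high glycolysis values, and the part of array brightness in these differences was not tested.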

How the data were processed

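Signal intensity and a detection p-value for each of 22523 probes were taken per array as deposited by the authors. The authors' processed log2 values, deposited beside them, served as an alternative. The lumi package, version 2.2, is named in the submitters' processing notes, and for the signals the steps before deposit are not given in the sources used here. Probes at 0 on every array, 720 in number, were left out. From the rest, limma 3.58.1 in R 4.3.3 (neqc, offset 16) gave background-corrected, quantile-normalized log2 levels over all 21 arrays, which equalizes the arrays' distributions and sets a shared floor and ceiling.

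Of 21803 measured probes, 13398 had 1 gene symbol in the platform annotation and 8405 had none. The brightest probe stood for each of 76 symbols with several, which left 13317 named genes and 21722 features. Features detected at p below 0.01 on at least 6 arrays were tested with limma's moderated F over rats (lmFit, eBayes, Benjamini-Hochberg, threshold 0.05), and the scripts were tested on simulated data. A list's mean level was taken over its members detected on at least 6 arrays. No depth of counting exists for arrays, so their number limits the precision. Nothing in the labels makes slices of a rat independent, and the rat was the replicate.

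Genes named were the 30 brightest, the 25 with the largest and the 20 with the smallest SD over rats, the 3 brightest detected on all arrays and the first 3 detected on none of each of 54 lists, the first 3 measured members of each cell type list, all reference genes and the 15 with the smallest p. Any others were named after their values were seen. The members and lists were chosen with earlier results of these data known.

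The alternatives were the authors' values, no background correction, another offset, other detection filters, a mean-variance trend, slice number as a block, mean signal as a covariate, array weights, and leaving out each array and each rat. Deviations of samples with the same slice number in different rats correlated by 0.0624 on average (10 pairs) and those with different numbers by -0.0312 (20 pairs), so slice numbers were not taken to pair samples.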

Additional observations from a re-analysis of the deposited data

Results flagged for a closer look

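Among 281 sets of 6 rat means (named genes and list means), 19 had a rat set apart from the other 5 by a gap that is large against the whole range (Dixon's 95% criterion). Chance alone sets apart about 1 in 20, or 14.05 of 281, so these are values to look at and no pattern is read from them. P91 was the rat set apart in 6, B9 in 5, B13 in 4, B1 in 2, and B3 and B10 in 1 each.

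In P91, Aplp1 was highest at 8.98 with the next rat at 6.85, and the small heat shock protein Hspb1 was highest at 10.73 with the next at 9.13. Lcn2 was highest there at 8.32 (next 6.51), a mean that rests on its slice 3, and Pdgfra at 6.60 (next 6.24). The mean of the neutrophil and mast cell list, which has 2 members detected on at least 6 arrays, was 7.69 in P91 with the next at 6.72. Skp1 was lowest in P91 at 10.35 (next 12.06), again through slice 3 alone.

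In B9, the opioid peptide precursor Penk was highest at 10.5 (next 7.70), the proteasome subunit Psmc1 at 12.55 (next 11.8) and the mean of the proteasome and ubiquitin list at 9.88 (next 9.51). Hbb was highest there at 6.67 (next 5.96), from slices 1 and 3. Cxcl1 was lowest in B9 at 8.80 (next 9.73).

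In B13, which has 1 slice, the somatostatin receptor Sstr1 was highest at 7.61 (next 6.41), Vcan at 6.70 (next 6.34) and Rbfox3 at 6.09 (next 5.96), while Cd59b was lowest at 7.51 (next 8.66). In B1, also with 1 slice, Neurod1 was highest at 6.20 (next 6.04) and Hsbp1 lowest at 10.92 (next 11.15). In B3, Gad2 was highest at 5.93 (next 5.89), a difference at the floor of the scale. In B10, Rgs9 was lowest at 7.97 (next 9.96), from slice 1 at 6.24.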

How the results depend on the processing

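The 30 brightest genes were the most stable result, with 28 to 30 shared under each alternative run. Probes detected on all arrays numbered 4840, or 4841 to 5554 without 1 array, and those on none 10171, or 10203 to 10572. Of the 25 most variable genes, 14 were shared when the spread was taken as the residual from its trend with level, and 14 to 25 without 1 array. Of the 20 most stable, 5 were shared with the spread over 11 arrays and 11 with the residual, 8 without P91, 8 without B9, 12 without B3, 9 without B13 and 10 without B10, and 8 to 17 without 1 array.

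The count of features that differed between rats, 5, moved most. It was 1 with the authors' values, 2 without background correction, 9 with no detection filter, 9 with a mean-variance trend, 1 with mean signal as covariate and 462 with array weights. With slice number as a replicate block it was 1, with 953 at an unadjusted p below 0.05. With detection on all 11 arrays limma's test called 0 of 4830 features, with 878 at an unadjusted p below 0.05. Without P91 it was 1, without B9 0 (526 at an unadjusted p below 0.05), without B1 14, without B3 1 and without B10 745, and 1 to 1079 without 1 array, the highest without slice 1 of B10. The causes were not tested. For single genes and lists, 1972 values were counted as the same. In the test between rats 60 values newly passed the threshold and 66 no longer did. Another 94, all SDs over rats or list counts, moved by more than a set ratio to the main value. Level percentiles were judged against their SD over rats, with a set minimum, and all 630 were counted as the same. Brightness near the floor limits what dim probes can show.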

Other observations

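Some probes were bright but not detected by the deposited detection p. On each array 47 to 77 probes with a p of at least 0.01 were brighter than that array's median detected probe. Of the 4919 named genes detected on no array, 52 had a level above 6. The brightest were Sar1a, a GTPase of vesicle transport, at 10.38, and Asrgl1, an asparaginase, at 10.14, both chosen after their values were seen. For Sar1a the detection p ran from 0.0768 to 0.432 over the arrays. For such probes "detected on none" describes the deposited p and not a signal near the floor.

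A gap of at least 2 log2 units that no rat straddled, a limit chosen after the data were seen, was found for 4 features. These were Tac3, Rps9, Aplp1 and an unnamed probe with a gap of 2.22 that was split between the rats in the same way as Rps9.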
